A study of Homo sapiens with 8 samples.

Results

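BEAS-2B, an immortalized line of human bronchial epithelial cells, was sequenced in 4 states, and the comparison described here set the 4 libraries made after nickel had been removed against the 4 libraries made before removal. The earlier states were untreated cells (UT) and cells kept in 100 µM NiCl2 for 6 weeks (Ni-E). The washed-out states were Ni-W, a population grown from a single colony of nickel-exposed cells and kept without nickel for more than 6 months, and HCl3, whose label gives the same exposure and single-cell cloning but neither the time without nickel nor how it relates to Ni-W. Each state had 2 libraries, all cells shared a medium of DMEM with fetal bovine serum, and the study's methods call the replicates biological, without saying that they came from separate cultures. P values measure only the spread between these libraries. Ni-W and HCl3 went through cloning and expansion while UT and Ni-E did not, and the numbers of the experiments in the labels follow the groups, so washout, cloning, time in culture and experiment cannot be told apart.

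A gene was kept when its normalized count in every washed-out library lay on one side of all 4 earlier libraries. Of the 25411 genes listed, 19148 had a read, and 5848 were separated in this way, 3119 higher and 2729 lower in the washed-out libraries. Of these, 16 had too few reads to be tested and 3340 were not called by DESeq2, of which 3037 changed by less than 1.5-fold. The remaining 2492 genes, called at an adjusted P value under 0.05 with at least 1.5-fold, are the members described here. They were 1763 higher genes and 729 lower genes, or 10.6% and 4.40% of the 16587 genes tested, and 15.0% together. Without the requirement of separation, 16.4% of the tested genes were called (11.5% higher and 4.88% lower), so 220 called genes were not separated. Separation and the test used the same libraries, so the fold changes and adjusted P values of the members describe the genes kept by the rule and are not independent support for it.

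Nickel compounds are airborne carcinogens that reach the bronchial epithelium, and nickel ions can take the place of iron in dioxygenases. These enzymes include the prolyl hydroxylases that mark hypoxia-inducible factor for destruction and demethylases of histones and DNA. Epithelial cells that pass through an epithelial-mesenchymal transition (EMT) lose junctions, lay down matrix and gain contractile and migratory features. These pathways, and the responses to metal, stress and interferon, set the order of the results.

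The libraries held 26383920 to 45692298 counted reads, and 3 reads, the floor used for low genes, were 6.57e-06 to 1.14e-05% of a library. Of the markers of other cell types, secretory cell markers summed to at most 0.31 RPKM (reads scaled to gene length and library size), and the leukocyte genes PTPRC, CD3E, LYZ and ITGAM were below 0.1 RPKM, as were the fibroblast genes DCN, PDGFRA, COL3A1 and FAP. The leukocyte markers CD14 and CD68 and the fibroblast markers PDGFRB, COL1A1, COL1A2 and THY1 reached 1 RPKM. CD14 was itself a higher member, with 1.06 to 1.96 RPKM before and 2.84 to 4.15 RPKM after. PTPRC and COL3A1 were higher members too, though below 0.1 RPKM in every library, and COL3A1 counts among the collagens described further on. The leukocyte markers summed to 17.8 to 23.3 RPKM over all libraries and the neuronal ones, of which ENO2 alone reached 1 RPKM, to 31.7 to 61.8 RPKM. Of the markers of the airway epithelium itself, the basal genes TP63, KRT5 and KRT14, the secretory gene SCGB1A1 and the ciliated gene FOXJ1 were also below 0.1 RPKM, while ITGA6, ITGB4, S100A2 and DLK2 reached 1 RPKM.

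The members differed in level by direction. Higher members had a median log2 fold change of 1.53 and a median normalized count of 106, and lower members a median log2 fold change of -0.77 and a median normalized count of 815, beside medians of 0.03 and 609 over all tested genes. At least 4-fold changes were found for 657 higher and 52 lower members. In 261 higher members each earlier library held 3 reads or fewer, and in 23 lower members each washed-out library did. The nearest washed-out and earlier libraries were at least 1.5-fold apart in 1105 members, and 2426 members were also separated on RPKM.

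Most of the leading higher members went from a few reads or none to clear expression in both washed-out populations. GALC, the lysosomal galactosylceramidase (chr14:88399358-88460009, hg19), had 0 reads in the 4 earlier libraries, 1.51 and 1.61 RPKM in Ni-W and 2.41 and 2.51 RPKM in HCl3, a level at least 92.54-fold higher against the mean level of 3 reads in the earlier libraries. MGMT, which removes alkyl groups from guanine in DNA (chr10:131265454-131565783), likewise had 0 reads before, 5.62 and 4.43 RPKM in Ni-W and 3.55 and 3.84 RPKM in HCl3, at least 66.06-fold higher. EYA2, a phosphatase and transcriptional coactivator of development, had at most 0.02 RPKM before, 3.04 and 2.64 RPKM in Ni-W and 3.69 and 3.75 RPKM in HCl3. For these 3 genes the 2 populations lay within 2-fold of each other. ZNF883, a zinc finger gene, rose from 0 reads to between 1.92 and 2.51 RPKM in the 4 washed-out libraries. SLC12A7, a potassium-chloride cotransporter, rose from at most 0.06 RPKM to 8.28 and 7.79 RPKM in Ni-W and 6.38 and 6.83 RPKM in HCl3 (log2 fold change 7.96 ± 0.57 SE). SLC38A5, a glutamine transporter, was the only one of the 12 leading higher genes past 10 RPKM, at 10.98 and 11.06 RPKM in HCl3 beside 6.79 and 5.65 RPKM in Ni-W and at most 0.08 RPKM before.

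Other leading genes met the rule but stood far higher in Ni-W than in HCl3. SYK, a cytoplasmic tyrosine kinase best known from immune cells (chr9:93589702-93660842), had 0 reads before, 3.28 and 3.01 RPKM in Ni-W and 0.11 and 0.10 RPKM in HCl3, where these levels were 22 and 20 reads. LPHN2, an adhesion G protein-coupled receptor, had at most 0.02 RPKM before, 4.16 and 4.56 RPKM in Ni-W and 0.22 RPKM in both HCl3 libraries. Both genes were thus expressed strongly in 1 population only, and their places in the ranking rest on Ni-W. Without either Ni-W library DESeq2 gave no adjusted P value for them, and limma on log2(RPKM + 1) gave adjusted P values of 0.134 for SYK and 0.107 for LPHN2. ROBO1, a receptor for SLIT guidance cues, had at most 0.01 RPKM before, 5.44 and 5.49 RPKM in Ni-W and 1.47 and 1.25 RPKM in HCl3. PTPRN, a membrane protein of secretory granules, CADM3, an immunoglobulin-like adhesion molecule, and RTN1, a protein of the endoplasmic reticulum, had the same order, with 3.97 and 4.21, 6.98 and 6.49, and 3.28 and 3.86 RPKM in Ni-W and 1.13 and 1.06, 2.17 and 2.42, and 1.46 and 1.95 RPKM in HCl3. ROBO1 and CADM3 overlap antisense genes, and the strand of a read is not stated to have been used, so their reads cannot be told from those of their partners.

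The leading lower members ranged from genes nearly lost in both populations to genes that kept a clear level. TLL1, a protease that matures procollagen (chr4:166794410-167025609), had 1.02 and 1.03 RPKM in UT, 1.22 and 1.34 RPKM in Ni-E and at most 0.03 RPKM in the washed-out libraries (log2 fold change -7.36 ± 0.54 SE, adjusted P value 4.9e-40). BCHE, butyrylcholinesterase, had 1.76 and 1.72 RPKM in UT, 8.56 and 9.94 RPKM in Ni-E and at most 0.06 RPKM after washout. It had risen under nickel before it was lost, by 2.35 ± 0.19 SE on the log2 scale in Ni-E against UT. HIF1A-AS1, a long noncoding RNA beside HIF1A (chr14:62147759-62162541, minus strand), had 11.72 and 13.56 RPKM in UT, 15.54 and 14.17 RPKM in Ni-E, 0.22 and 0.39 RPKM in Ni-W and 0.44 and 0.33 RPKM in HCl3. PCLO, a scaffold of synapses, had 0.27 to 0.39 RPKM before and at most 0.02 RPKM after. DCDC2, a doublecortin-domain protein of cilia and neurons, had 1.65 to 2.05 RPKM before and 0.10 to 0.17 RPKM after, so that its groups were about as far apart in either population. WT1, a zinc finger transcription factor of kidney and mesothelium, and GLDC, the glycine decarboxylase of mitochondria, fell further in Ni-W, to 0.56 and 0.78 and to 1.11 and 1.03 RPKM, than in HCl3, where they had 2.65 and 2.58 and 2.89 and 3.2 RPKM. SLC7A2, a transporter of cationic amino acids, FERMT1, an integrin activator, and the pseudogene LOC645638 made up the rest of the 12 with the stress genes ASNS and CHAC1, described further on.

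**Figure D1:**
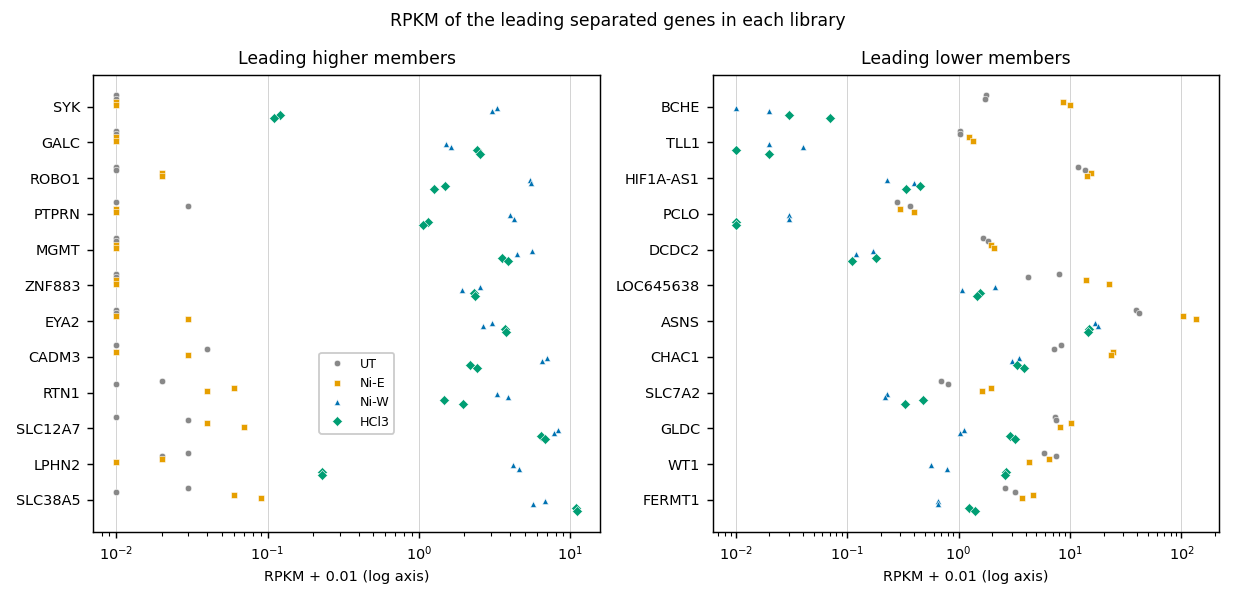
RPKM plus 0.01 in each library (horizontal log axis) of the 12 leading higher members (left) and 12 leading lower members (right), 1 point per library, in gray circles for UT, orange squares for Ni-E, blue triangles for Ni-W and green diamonds for HCl3. SYK and LPHN2 stand near 3 to 4.6 RPKM in Ni-W and at 0.10 to 0.22 RPKM in HCl3, while GALC, MGMT and EYA2 are close in both, and most lower members were highest in Ni-E.

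Because the 2 populations were compared with the same 4 earlier libraries, agreement was counted between pairs of groups that share no library. Of 2491 genes called between Ni-W and UT (16.1% of those tested, with 1725 higher, 11.1%, and 766 lower, 4.95%) and 2742 called between HCl3 and Ni-E (17.6%, with 1657 higher, 10.6%, and 1085 lower, 6.95%), 1334 changed the same way in both, 952 higher and 382 lower, and 47 the opposite way. The shared genes were 53.6% of the first list and 48.7% of the second. In the crossed comparison, Ni-W against Ni-E called 3283 genes (21.0%, 12% higher and 9.04% lower) and HCl3 against UT 2349 genes (15.2%, 11.4% higher and 3.84% lower), with 1251 changed the same way, 61 the opposite way, and shares of 38.1% and 53.3%. This count was 805 without HCl3 replicate 1 and 827 without HCl3 replicate 2. Shared lower genes were 22.1% of the 1413 lower genes of Ni-W against Ni-E and 52.7% of the 592 lower genes of HCl3 against UT.

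Taken pair by pair, with libraries shared among the comparisons, 753 of the higher members (42.7%) were called higher in each of the 4 comparisons of a washed-out with an earlier group, and 159 in none of them. Of the lower members, 236 (32.4%) were called lower in all 4 and 34 in none. The rule had already set these directions from the same libraries. The lower members were called more often against Ni-E (598 for Ni-W and 578 for HCl3) than against UT (470 and 390). For the higher members these counts were closer, at 1278 and 1214 against Ni-E and 1259 and 1207 against UT. Lower calls over all tested genes leaned the same way. For Ni-W and HCl3 they were 9.04% and 6.95% against Ni-E and 4.95% and 3.84% against UT. More lower calls against Ni-E were thus not particular to the members.

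The matrix held many higher members. Among the collagens, 20 of 33 tested genes were higher members (60.6%, beside 10.6% of all tested genes) and 1 was a lower member, with a median log2 fold change of 1.28 beside 0.03 over all tested genes. FN1, fibronectin, links cells to the matrix through integrins (listed span chr2:216279384-216300791, which may be part of the gene). It had 6.97 and 6.99 RPKM in UT and 4.13 and 6.65 RPKM in Ni-E. Ni-W had 82.1 and 82.8 RPKM, and HCl3 117 and 121 RPKM. UT and Ni-E lay close together, and both populations were far above them (log2 fold change 4.01 ± 0.19 SE, adjusted P value 1.77e-99). COL8A1, a short-chain collagen, rose from 0.38 to 0.60 RPKM before to 7.21 and 6.67 RPKM in Ni-W and 5.18 and 4.93 RPKM in HCl3. COL5A1, a chain of the collagen that starts fibrils, had 2.44 and 2.01 RPKM in UT, 1.76 and 4.42 RPKM in Ni-E, 17.65 and 19.01 RPKM in Ni-W and 29.1 and 29.8 RPKM in HCl3. COL5A3 of the same collagen type took a longer path, from 0.43 and 0.48 RPKM in UT to 0.02 and 0.05 RPKM in Ni-E and then 2.66 to 3.30 RPKM in the washed-out libraries. Its fall in Ni-E against UT was by 3.81 ± 0.56 SE on the log2 scale. COL1A1, the main collagen of these cells at 178 to 454 RPKM, was neither separated nor called (log2 fold change 0.09 ± 0.32 SE), and COL4A6, a chain of basement membranes, fell by 0.77 ± 0.14 SE on the log2 scale.

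Of 31 other matrix proteins, 16 were higher members (51.6%). FBLN1, fibulin 1, had 2.87 to 3.97 RPKM before, 20.4 and 19.2 RPKM in Ni-W and 18.2 RPKM in both HCl3 libraries, and BGN, the proteoglycan biglycan, 0.26 to 0.76 RPKM before and 2.48 to 2.73 RPKM after. Integrins and laminins gave 15 higher members and 1 lower member of 35 tested. ITGA4, which pairs with beta chains to bind fibronectin and VCAM1, had 0.05 to 0.21 RPKM before, 6.70 and 7.01 RPKM in Ni-W and 4.68 and 4.19 RPKM in HCl3, and it overlaps CERKL on the other strand. ITGA11, a collagen receptor, rose from at most 0.05 RPKM to between 0.28 and 0.40 RPKM. ITGA6 and ITGB4, the laminin receptor pair of hemidesmosomes, rose by 0.74 ± 0.10 SE and 1.39 ± 0.28 SE on the log2 scale, and ITGA7 fell by 0.76 ± 0.12 SE. The summed RPKM of the 9 basal markers, which hold ITGA6 and ITGB4, moved with these, from 18.2 to 21.6 before to 30.8 to 32.7 after, and the part of a basal cell type in them was not tested.

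Matrix proteases and their inhibitors moved in both directions, with 15 higher and 4 lower members of 42 tested. MMP1, interstitial collagenase, had 0.37 and 0.45 RPKM in UT, 1.64 and 0.26 RPKM in Ni-E, 8.59 and 10.0 RPKM in Ni-W and 8.21 and 7.06 RPKM in HCl3. MMP11 and ADAMTS3, a procollagen peptidase, rose by 1.53 ± 0.21 SE and 1.85 ± 0.41 SE on the log2 scale. The lower members were TLL1, ADAMTS1, MMP16 and ADAMTS4. ADAMTS1, which cuts proteoglycans, went from 18.2 to 32.3 RPKM before to 7.51 and 9.74 RPKM in Ni-W and 15.2 and 13.8 RPKM in HCl3. The summed fibroblast markers, which include COL1A1 and COL1A2, did not follow the matrix members, at 514 to 580 RPKM in UT, 325 to 501 in Ni-E, 398 to 413 in Ni-W and 641 to 670 in HCl3.

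**Figure D2:**
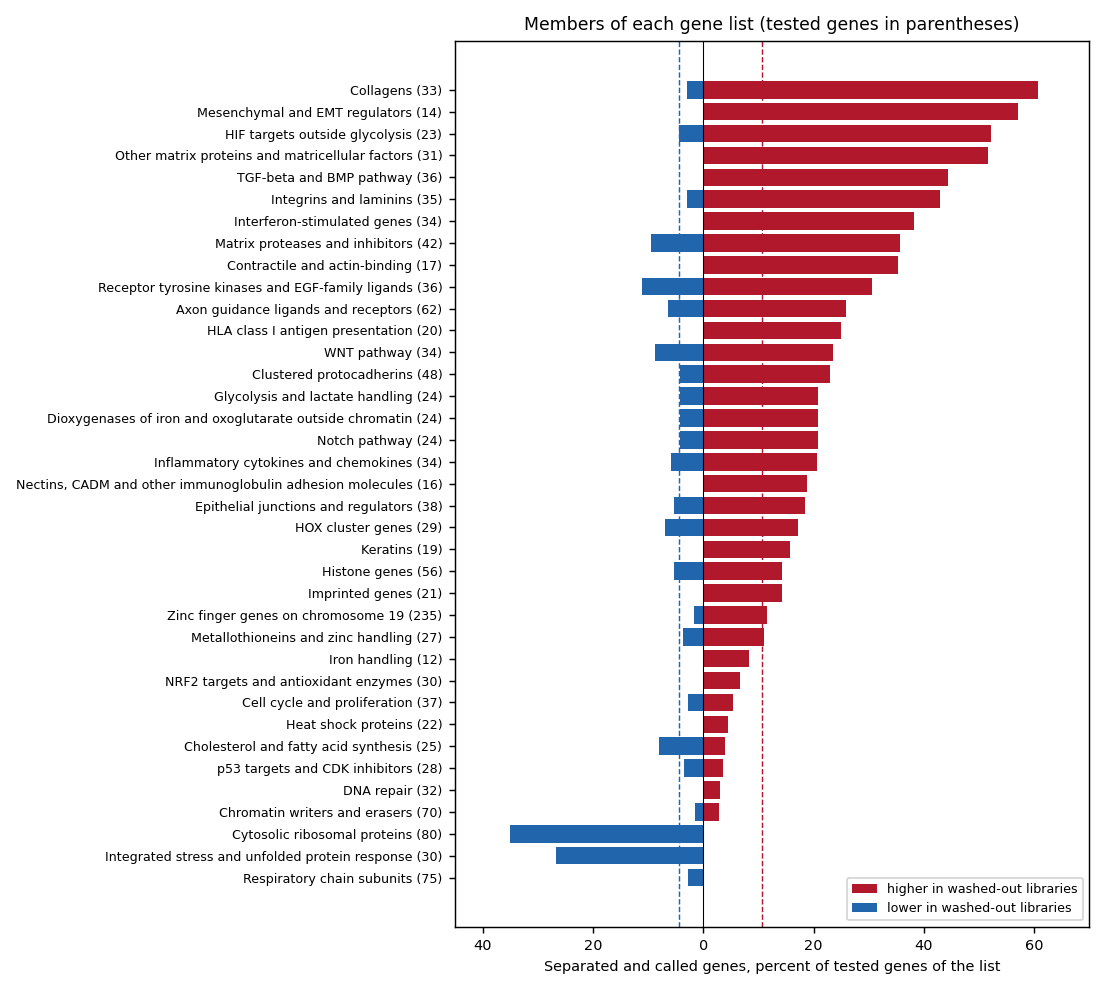
Percent of the tested genes of each list that were higher members (red, to the right) or lower members (blue, to the left), for lists with at least 10 tested genes, with dashed lines at the shares over all tested genes (10.6% higher and 4.40% lower). Collagens reach 60.6% higher, and the longest bars to the left belong to ribosomal proteins at 35.0% and the stress response at 26.7%.

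Hypoxia-inducible factor (HIF) binds DNA at sites with the core letters ACGTG or GCGTG, and 300-base promoters (250 bases before to 50 after the start) were searched for these letters on both strands (CACGTG holds the first core on both). Of 12 higher members among the HIF targets outside glycolysis, 11 were matched in RefSeq and 8 held a core (72.7%), beside 48.4% of all 35116 promoters, 61.0% of those of tested genes, 51.9% of 1340 matched higher members and 67.2% of 570 matched lower members. A match is a description of these letters, not a bound site. The stretches around the core nearest to the start are shown for CA9 and for 3 dioxygenase genes that are also HIF targets, in the direction of the gene, with the core in capitals (RefSeq, GRCh38.p14). The core is written as it reads on the strand of the gene, CACGT where ACGTG lies on the other strand. Their positions are chr9:35673898-35673927 (plus), chr1:231422288-231422317 (minus), chr2:86441333-86441362 (plus) and chr10:73096935-73096964 (minus).
CA9: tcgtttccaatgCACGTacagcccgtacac
EGLN1: ccgcggggccgtggtgtACGTGcagagcgc
KDM3A: ccgggaggctgtGCGTGtcttgtgagagct
P4HA1: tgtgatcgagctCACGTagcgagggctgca

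Among 23 tested HIF targets outside glycolysis, 12 were higher members (52.2%) and 1 a lower member, with a median log2 fold change of 0.73. CA9, a carbonic anhydrase of the cell surface with its core 18 bases before the start, had 0.81 and 0.50 RPKM in UT, 0.62 and 1.58 RPKM in Ni-E, 8.95 and 5.12 RPKM in Ni-W and 20.1 and 21.4 RPKM in HCl3. NDRG1, a stress-responsive gene of differentiation, had 10.3 to 22.8 RPKM before, 128 and 109 RPKM in Ni-W and 155 RPKM in both HCl3 libraries (log2 fold change 3.04 ± 0.20 SE). As members, both were by the rule higher in each washed-out library than in UT and Ni-E. KDM3A, a demethylase of histone H3 lysine 9, had 9.90 to 11.6 RPKM before and 18.4 to 20.6 RPKM after, and the 2 populations overlapped. P4HA1, the prolyl hydroxylase of collagen, rose by 0.73 ± 0.11 SE on the log2 scale. P4HA2, of the same enzyme family, rose by 0.71 ± 0.12 SE. EGLN1, a main hydroxylase of HIF, had 11.8 to 13.01 RPKM before and 17.8 to 19.8 RPKM after. EGLN3, a hydroxylase of the same kind, had 0.46 to 0.72 RPKM before, 1.28 and 0.77 RPKM in Ni-W and 3.35 and 3.66 RPKM in HCl3, so that Ni-W lay just above the earlier states. RORA, a nuclear receptor, appeared at 0.15 to 0.22 RPKM from at most 0.01 RPKM.

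All 12 were called higher in HCl3 against either earlier state, and 9 and 8 of them in Ni-W against UT and Ni-E. The rule had set these directions from the same libraries, so these calls are no separate support. Not all targets followed. ADM, adrenomedullin, had 191 and 207 RPKM in UT, 144 and 135 RPKM in Ni-E, 50.5 and 48.6 RPKM in Ni-W and 116 and 121 RPKM in HCl3. Its call ended without UT replicate 1 (adjusted P value 0.0706) or UT replicate 2 (0.0726). VEGFA, the vascular growth factor, was not separated, with 5.02 and 5.21 RPKM in UT, 13.01 and 12.73 RPKM in Ni-E, 7.71 and 7.28 RPKM in Ni-W and 10.7 and 9.51 RPKM in HCl3. Both factor genes, chosen after their values were seen, were higher members. HIF1A had 23.8 to 27.9 RPKM before, 48.3 and 53.9 RPKM in Ni-W and 80.4 and 75.4 RPKM in HCl3, and EPAS1, which encodes HIF-2 alpha, 8.35 to 10.6 RPKM before, 13.9 RPKM in both Ni-W libraries and 19.3 and 18.8 RPKM in HCl3. HIF1A and the lost HIF1A-AS1 lie on opposite strands of chromosome 14. The listed span of HIF1A-AS1 ends at 62162541 and that of HIF1A starts at 62164340 (hg19). A listed span may cover only part of a gene with several transcripts, so whether they overlap was not settled. HIF1A does overlap HIF1A-AS2.

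Glycolysis moved less, with 5 higher members of 24 tested (20.8%) and a median log2 fold change of 0.34. PDK1, which holds pyruvate back from the mitochondria, had 2.53 and 2.83 RPKM in UT, 3.96 and 3.6 RPKM in Ni-E, 6.33 and 6.36 RPKM in Ni-W and 8.28 and 7.44 RPKM in HCl3. PFKFB4 and PFKFB3, which set the level of the activator of phosphofructokinase, rose by 1.20 ± 0.17 SE and 0.83 ± 0.15 SE on the log2 scale, and SLC2A1 and LDHA were the other higher members. LDHB, the lactate dehydrogenase of oxidative tissue, fell by 0.59 ± 0.08 SE, a change under 1.5-fold without Ni-E replicate 1 (-0.53), HCl3 replicate 1 (-0.56) or HCl3 replicate 2 (-0.58), and after removal of trends with GC content and length (-0.45). Of 75 respiratory chain genes 2 were lower members, with a median log2 fold change of -0.26.

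**Figure D3:**
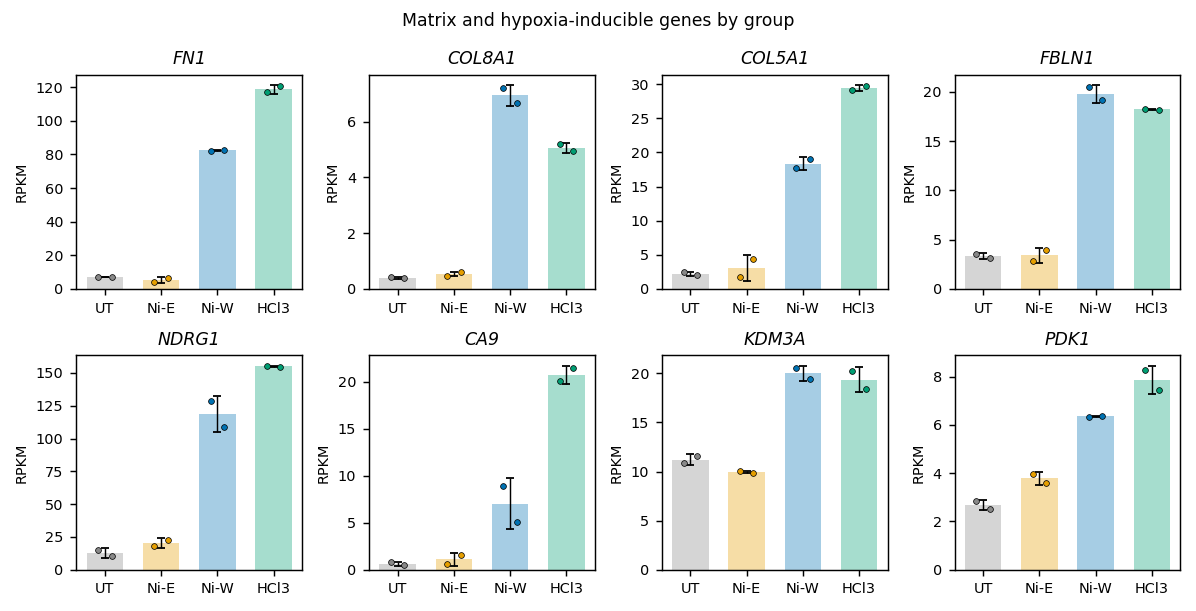
RPKM of 4 matrix genes (top) and 4 hypoxia-inducible genes (bottom) in UT, Ni-E, Ni-W and HCl3, with bars for the mean of 2 libraries, error bars for the SD and points for the libraries. In each panel both washed-out groups lie above UT and Ni-E, as the rule requires of higher members. HCl3 is the highest group for FN1, COL5A1, NDRG1, CA9 and PDK1, and KDM3A is near 20 RPKM in both populations.

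Mesenchymal genes and regulators of EMT, taken as 1 list, gave 8 higher members of 14 tested (57.1%). CDH11, a mesenchymal cadherin, went from at most 0.01 RPKM to 1.00 and 1.08 RPKM in Ni-W and 0.35 and 0.38 RPKM in HCl3. SNAI2, a repressor of E-cadherin, had 0.32 and 0.26 RPKM in UT, 0.60 and 0.58 RPKM in Ni-E and 1.10 to 1.58 RPKM after washout, and NES, the intermediate filament nestin, 0.28 to 0.48 RPKM before and 0.99 to 1.12 RPKM after. Contractile genes gave 6 higher members of 17. MYLK, myosin light chain kinase, had 14.4 to 19.7 RPKM before and 34.6 to 40.6 RPKM after, and TPM1, a tropomyosin, 126 to 205 RPKM before and 298 to 349 RPKM after. MYL9, a myosin light chain, rose by 0.83 ± 0.16 SE on the log2 scale. TAGLN, transgelin, was separated but not called (adjusted P value 0.0589), with 179 and 182 RPKM in UT, 61.1 and 87.3 RPKM in Ni-E and 216 to 246 RPKM after. It was called without UT replicate 1 (0.036), UT replicate 2 (0.0264) or Ni-E replicate 1 (0.0239). VIM, vimentin, the main intermediate filament of mesenchymal cells, was not separated, with 816 and 992 RPKM in Ni-W beside 1515 and 1527 RPKM in HCl3.

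Genes of epithelial junctions did not fall as a group, with 7 higher and 2 lower members of 38 tested and a median log2 fold change of 0.31. DSP, desmoplakin, the anchor of desmosomes, had 0.23 and 0.34 RPKM in UT, 2.19 and 1.93 RPKM in Ni-E, 5.49 and 5.72 RPKM in Ni-W and 8.31 and 8.49 RPKM in HCl3. It had already risen in Ni-E, by 2.86 ± 0.22 SE on the log2 scale against UT. PKP1, a desmosomal plakophilin, rose from 0.03 to 0.05 RPKM to between 0.39 and 0.55 RPKM, and ESRP2, a splicing factor of epithelial cells, from 0.06 to 0.16 RPKM to 0.19 and 0.29 RPKM in Ni-W and 0.61 and 0.89 RPKM in HCl3. CLDN1, a tight junction claudin, and GRHL1, a factor of epidermal junctions, fell by 0.81 ± 0.15 SE and 1.11 ± 0.21 SE. Of 19 keratins 3 were higher members (15.8%, beside 10.6% of all tested genes). KRT7, the most abundant of these, had 207 to 358 RPKM before and 412 to 481 RPKM after, a change under 1.5-fold without Ni-E replicate 2 (0.57 on the log2 scale), and KRT19 appeared at 0.53 to 0.78 RPKM from at most 0.02 RPKM.

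In signalling, the TGF-beta and BMP pathway gave 16 higher members of 36 tested (44.4%), with a median log2 fold change of 0.70. The higher members included ligands (INHBA, TGFB2), receptors (TGFBR1, BMPR2), secreted antagonists (GREM1, CHRD, FST, FSTL3), signal transducers (SMAD3, SMAD9), inhibitors (SMAD6, SMAD7, SKIL) and targets (ID1, ID2). GREM1, an antagonist of BMP ligands, had 3.69 to 6.45 RPKM before, 17.1 and 18.1 RPKM in Ni-W and 33.7 and 33.2 RPKM in HCl3. ID2, an inhibitor of helix-loop-helix factors, had 5.56 and 5.35 RPKM in UT, 3.19 and 3.68 RPKM in Ni-E, 18.9 and 17.5 RPKM in Ni-W and 13.1 and 12.3 RPKM in HCl3. CHRD, chordin, rose by 1.22 ± 0.30 SE on the log2 scale. Of the 16 genes, 5 were called lower in Ni-E against UT, and the rule itself places all higher members highest after washout.

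The WNT list gave 8 higher and 3 lower members of 34, and Notch 5 and 1 of 24. SFRP1, a secreted WNT antagonist, had 0.05 and 0.04 RPKM in UT, 0.28 and 0.35 RPKM in Ni-E, 4.41 and 4.33 RPKM in Ni-W and 2.57 and 2.61 RPKM in HCl3, and WNT10A, a ligand, 0.13 to 0.28 RPKM before, 1.20 and 1.37 RPKM in Ni-W and 2.29 and 2.75 RPKM in HCl3. FZD3, a WNT receptor, fell by 1.22 ± 0.14 SE on the log2 scale. NOTCH3 had 0.45 to 0.82 RPKM before and 3.65 to 3.81 RPKM after, with the 2 populations together. Its target HES1 rose by 1.67 ± 0.35 SE, while DLL3, a ligand that does not activate the receptor, fell by 1.33 ± 0.24 SE. Axon guidance gave 16 higher members and 4 lower members of 62. Among them were SEMA5A at 0.25 to 0.38 RPKM from at most 1 read in each earlier library and SLIT3, a ligand of ROBO receptors, at 0.22 to 0.41 RPKM from at most 0.02 RPKM. EFNB1 and EFNA5, membrane-bound ephrin ligands, fell by 1.29 ± 0.16 SE and 1.22 ± 0.22 SE. Tyrosine kinases and EGF-family ligands, a list that includes SYK, gave 11 higher and 4 lower members of 36. FLT1, a receptor for VEGF on chromosome 13, had 0.02 to 0.13 RPKM before and 1.56 to 1.94 RPKM after, and RET rose from at most 0.04 RPKM to between 0.15 and 0.28 RPKM. The endothelial markers moved with FLT1, but at 0.27 to 0.62 RPKM in sum before and 0.72 to 1.02 after, with PECAM1, CDH5, KDR, TEK and EMCN below 0.1 RPKM. KDR was still a higher member and counts in the kinase list.

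Interferon-stimulated genes gave 13 higher members of 34 tested (38.2%), with a median log2 fold change of 0.69. MX1, a GTPase that blocks viruses, had 2.03 and 1.54 RPKM in UT, 2.26 and 2.79 RPKM in Ni-E, 5.72 and 5.16 RPKM in Ni-W and 13.71 and 13.04 RPKM in HCl3. MX2 had the same order, from 0.37 to 1.04 RPKM before to 1.95 and 1.42 RPKM in Ni-W and 4.68 and 4.78 RPKM in HCl3. OASL, of the oligoadenylate synthetase family, barely separated in Ni-W, at 0.93 RPKM in both libraries beside 0.71 and 0.85 RPKM in Ni-E, and reached 3.65 and 3.43 RPKM in HCl3. All 13 were called higher in HCl3 against UT and against Ni-E, and 10 and 7 in Ni-W against the same groups. The rule had set these directions from the same libraries. Between the populations, 6 were higher in HCl3 than in Ni-W. HLA-B, which presents antigen, had 154 to 234 RPKM before and 297 to 339 RPKM after, 1 of 5 higher members among 20 genes of the class I pathway. HLA genes share sequence, and only reads with 1 alignment were counted, so their levels may be undercounted. Cytokines gave 7 higher and 2 lower members of 34. CXCL6, a neutrophil attractant, rose from 1.84 to 6.58 RPKM to between 15.6 and 22.3 RPKM, and CXCL14 from 0.02 to 0.19 RPKM to between 0.66 and 0.93 RPKM. IL32 fell by 0.65 ± 0.19 SE on the log2 scale, a call lost without Ni-E replicate 2 (-0.43) and after removal of trends with GC content and length. In bulk libraries fewer cells expressing a gene and less RNA per cell cannot be told apart.

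Lower members included a block of stress genes. Of 30 tested genes of the integrated stress and unfolded protein response, 8 were lower members (26.7%, beside 4.40% of all tested genes), with a median log2 fold change of -0.37. ASNS, asparagine synthetase (chr7:97481429-97501854, hg19), had 38.9 and 41.3 RPKM in UT, 102 and 136 RPKM in Ni-E, 16.8 and 17.8 RPKM in Ni-W and 14.7 and 14.5 RPKM in HCl3. The rule places the washed-out libraries of a lower member below UT as well as Ni-E. For ASNS the distance from UT was 1.26 ± 0.12 SE on the log2 scale for Ni-W and 1.51 ± 0.11 SE for HCl3. CHAC1, which degrades glutathione, had 8.36 and 7.24 RPKM in UT, 24.2 and 23.1 RPKM in Ni-E, 3.51 and 3.02 RPKM in Ni-W and 3.32 and 3.82 RPKM in HCl3. TRIB3, a pseudokinase induced by ATF4, had 27.7 and 23.5, 74.7 and 66.0, 12.8 and 12.7, and 15.8 and 16.4 RPKM in UT, Ni-E, Ni-W and HCl3. ATF4, the transcription factor of this response, and PSAT1, of serine synthesis, fell by 1.31 ± 0.19 SE and 1.61 ± 0.33 SE, and SESN2, SHMT2 and VLDLR were the other lower members. All 8 were called lower in both populations against Ni-E, and 6 and 5 were called lower than UT in Ni-W and HCl3. The rule had set these directions from the same libraries. Between the earlier states, 7 were called higher in Ni-E against UT.

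Cytosolic ribosomal proteins gave 28 lower members of 80 tested (35.0%), with a median log2 fold change of -0.52. RPS6, the ribosomal protein phosphorylated downstream of mTOR (chr9:19376254-19380235), had 1676 and 1476 RPKM in UT, 1786 and 1616 RPKM in Ni-E, 774 and 709 RPKM in Ni-W and 903 and 968 RPKM in HCl3. RPL13A had 142 and 140 RPKM in UT, 239 and 215 RPKM in Ni-E and 81.9 to 98.6 RPKM after. Many ribosomal protein genes have processed copies elsewhere in the genome, and only reads with 1 alignment were counted, so their levels may be undercounted. The 28 genes were called lower 24 times in HCl3 against Ni-E and 17 times in HCl3 against UT. In Ni-W they were called lower 13 and 10 times against Ni-E and UT. The rule had set these directions from the same libraries.

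Among metal genes, metallothioneins and zinc transporters gave 3 higher members and 1 lower member of 27. These shares (11.1% and 3.7%) were near those of all tested genes (10.6% and 4.40%). MT1E, a metallothionein, had 29.5 and 17.6 RPKM in UT, 52.0 and 59.6 RPKM in Ni-E, 11.9 and 7.89 RPKM in Ni-W and 16.5 and 16.8 RPKM in HCl3, so that it lay below UT in HCl3 by only a narrow margin. SLC39A8, an importer of zinc and manganese, had 0.23 and 0.36 RPKM in UT, 0.75 and 0.62 RPKM in Ni-E, 5.98 and 5.13 RPKM in Ni-W and 3.32 and 3.31 RPKM in HCl3. SLC40A1, the iron exporter ferroportin, rose by 2.96 ± 0.31 SE on the log2 scale and was the 1 member among 12 iron genes (8.33%). Of 30 NRF2 targets 2 were higher members, NQO1, with 25.2 to 39.5 RPKM before and 46.6 to 63.0 RPKM after, and AKR1C3, with 0.53 to 0.83 RPKM before and 1.99 to 2.74 RPKM after. The median log2 fold change of this list was -0.19. Lipid synthesis gave 1 higher and 2 lower members of 25. HMGCS1, of the cholesterol pathway, rose by 0.71 ± 0.12 SE on the log2 scale, ELOVL6, a fatty acid elongase, fell by 0.88 ± 0.14 SE, and the regulator SREBF1 fell from 14.03 to 23.93 RPKM before to 10.34 to 13.41 RPKM after.

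**Figure D4:**
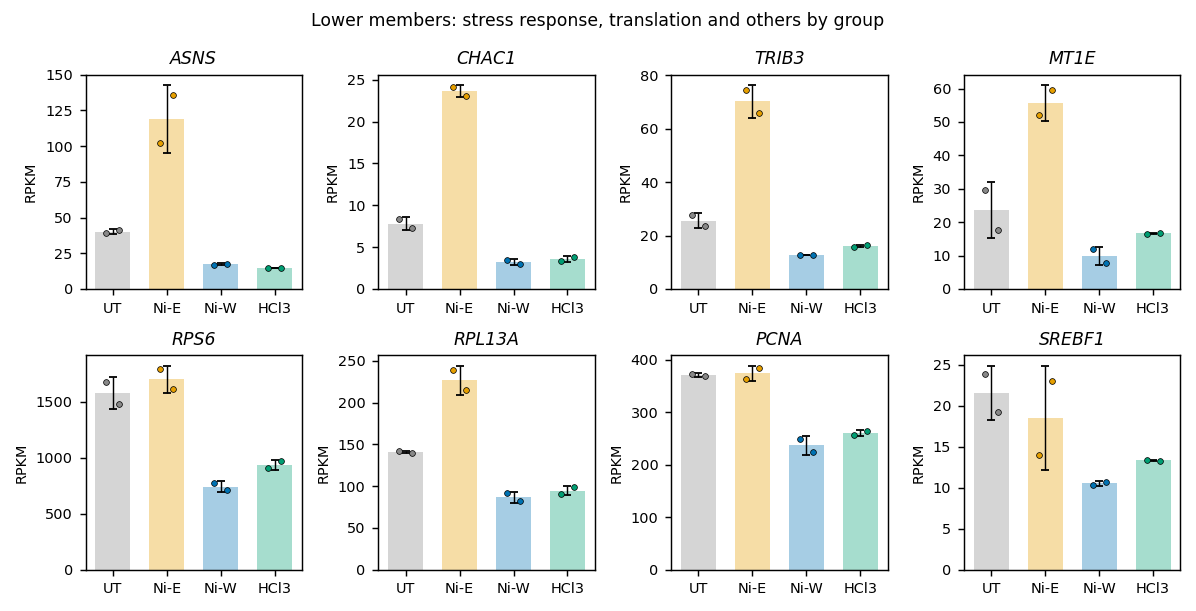
RPKM of stress, metal, translation, replication and lipid genes in UT, Ni-E, Ni-W and HCl3, with bars for the mean of 2 libraries, error bars for the SD and points for the libraries. ASNS, CHAC1, TRIB3, MT1E and RPL13A are highest in Ni-E and lowest in the washed-out groups, while RPS6 and PCNA have like levels in UT and Ni-E and are lower after washout.

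Growth control lists held smaller shares of members than all tested genes. Cell cycle genes gave 2 higher members and 1 lower member of 37, with a median log2 fold change of -0.05. TOP2A, topoisomerase II, had 152 to 174 RPKM before, 297 RPKM in both Ni-W libraries and 210 and 208 RPKM in HCl3, and its change of 0.60 ± 0.14 SE on the log2 scale was under 1.5-fold without UT replicate 1 (0.57), Ni-W replicate 1 or Ni-W replicate 2 (0.51 each). BUB1B, a spindle checkpoint kinase, rose by 0.68 ± 0.11 SE, and PCNA, the replication clamp, fell by 0.60 ± 0.07 SE, which was under 1.5-fold without Ni-W replicate 2 (-0.55) and after removal of trends with GC content and length (-0.44). DNA repair gave MGMT alone of 32 tested genes, p53 targets 1 higher and 1 lower member of 28, and heat shock 1 higher member of 22.

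Of 70 chromatin modifiers 2 were higher members and 1 a lower member, a smaller share than among all tested genes, with KDM3A and HDAC4 higher and HDAC9 lower. HDAC4, a histone deacetylase, rose from 0.93 to 1.12 RPKM to between 1.39 and 2.07 RPKM, a call lost after removal of trends with GC content and length. Histone genes gave 8 higher and 3 lower members of 56 (14.3% and 5.36%, beside 10.6% and 4.40% of all tested genes). HIST2H2BE led the higher ones, at 0.55 to 1.11 RPKM before, 5.78 and 4.84 RPKM in Ni-W and 3.49 and 4.12 RPKM in HCl3. HOX genes, which keep the position of a cell along the body, gave 5 higher and 2 lower members of 29. HOXA10 had 0.35 to 0.52 RPKM before and 2.39 to 2.62 RPKM after. HOXB9 had 3.67 and 4.40 RPKM in UT, 11.4 and 11.2 RPKM in Ni-E, 1.04 RPKM in both Ni-W libraries and 3.40 and 3.67 RPKM in HCl3, so that HCl3 was near UT and its call ended without either replicate of Ni-E or of Ni-W (adjusted P values 0.0519 to 0.0783).

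Imprinted genes are expressed from 1 parental copy, and 3 of 21 were higher members (14.3%, beside 10.6% of all tested genes). SNRPN, of the imprinted cluster on chromosome 15 (chr15:25200135-25223729), had 0.06 and 0 RPKM in UT, 0.22 and 0.16 RPKM in Ni-E, 15.8 and 14.3 RPKM in Ni-W and 8.72 and 9.37 RPKM in HCl3, and its reads are shared with SNURF on the same strand. IGF2, a growth factor, went from 0.02 to 0.10 RPKM to between 0.52 and 0.78 RPKM. Zinc finger genes of chromosome 19, most of them repressors of transcription, gave 27 higher and 4 lower members of 235 (11.5% and 1.70%), near the background for the higher genes. ZNF347 had 0 reads before and 0.54 to 1.04 RPKM after, and ZNF302 rose by 2.45 ± 0.32 SE on the log2 scale. Of 9 cancer-testis antigen genes that could be tested, 5 were lower members (MAGEA3, MAGEA6, MAGEA11, MAGEA12 and PAGE1). They have near-identical copies, and only reads with 1 alignment were counted, so their levels are uncertain.

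The rule sets no direction inside a class, but members also had to pass the 1.5-fold call between the classes. A lower gene raised in Ni-E passes that call more easily than one lowered in Ni-E. The counts inside a class are thus not independent of the filter. Between the populations, 107 of 1724 tested higher members were called higher and 132 lower in HCl3 than in Ni-W, or 13.9%, beside 4.90% of all 14605 genes tested there (3.18% higher and 1.72% lower). For the lower members the counts were 34 and 3 of 688, or 5.38%. Lower members that differed were thus mostly those that fell less in HCl3. Between the earlier states, 73 of 1361 higher members were called higher and 88 lower in Ni-E than in UT (11.8%, beside 5.94% of all 14140 tested genes, 3.84% higher and 2.10% lower), and of 728 lower members 66 were higher and 3 lower (9.48%). These 66 were 9.07% of the lower members tested. With any 1 library of the pair left out, 131 to 190 members were called between the populations, down from 276, and 93 to 127 between the earlier states, down from 230.

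At the edge of the rule the nearest libraries of the 2 classes had almost equal normalized counts. Just inside were ZNF280D, SMARCD3 and OXTR among higher members and CTXN1, GAS5 and KIAA1462 among lower members. Called genes just outside were TNFRSF14, MED12L and DLEU2 on the higher side and TMA7, CHST7 and ATP5J2-PTCD1 on the lower side. OXTR, the oxytocin receptor, had 40.8 and 53.4 RPKM in UT, 19.97 and 22.17 RPKM in Ni-E, 61.7 and 79.0 RPKM in Ni-W and 59.5 and 55.6 RPKM in HCl3. SMARCD3 had 1.68 and 1.49 RPKM in UT and 3.55 and 3.62 RPKM in Ni-E, close to its lowest washed-out level of 3.65 RPKM. Of the 6 members just inside, only CTXN1 kept its call with each library left out in turn.

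The share of members differed among chromosomes. Higher members made up 28.0% of 307 tested genes on chromosome 13 and 23.8% of 555 on chromosome 15, and lower members 0.651% and 0.541%, with a median log2 fold change of 0.45 over all tested genes of either chromosome. Among the members named above, FLT1 and SMAD9 lie on chromosome 13, and SNRPN, GREM1, TPM1, BUB1B, RORA, ITGA11, SMAD3, SMAD6, ZNF280D and CHAC1 on chromosome 15. Further shares were taken over genes with a mean normalized count of 50 or more, in 10 Mb windows with at least 20 of them. Higher members reached 46.4% of 28 genes at chr13:30000001-40000000 and 34.8% of 66 genes at chr7:1-10000000 (hg19). On chromosome 2 they reached 32.7% of 52 genes at 170000001-180000000, where ITGA6 and PDK1 lie, and 23.3% of 30 at 190000001-200000000, where SLC40A1 lies. FN1 and WNT10A lie at 210000001-220000000 (17.6% of 34). The windows at 220000001-230000000 and 230000001-240000000 held 25.0% of 32 and 26.1% of 46, and 240000001-250000000 held 5.0% of 20. In the windows with 25.0% and 26.1%, the median log2 fold change against UT was 0.33 and 0.35 in HCl3 but -0.06 and -0.01 in Ni-W. HOXA10 lies at chr7:20000001-30000000 (23.1% of 39). Lower members reached 40.0% of 25 genes at chr9:1-10000000, where GLDC lies, 38.5% of 26 genes at chr20:10000001-20000000 and 28.4% of 148 genes at chr17:1-10000000. With the genes of chromosomes 13 and 15 left out, 1545 higher members (9.83% of 15725 tested) and 724 lower members (4.6%) were counted. The part of copy number in these shares was not tested.

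**Figure D5:**
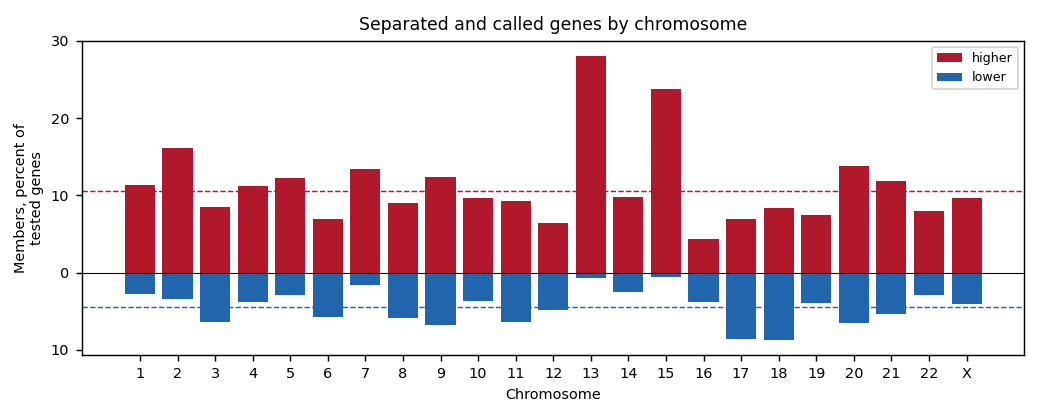
Percent of the tested genes of each chromosome that were higher members (red, upward) or lower members (blue, downward), with dashed lines at 10.6% and 4.40%. Chromosomes 13 and 15 stand highest at 28.0% and 23.8% and have the smallest lower shares.

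The 2 kinds of members also differed in gene structure. Over the members with a value (98.6 and 99.5%), higher members had a median GC content of 50.7% in the transcript. Their median transcript length was 4210 bases. Their median listed span in the genome, which may cover only part of some genes, was 29041 bases. Lower members had 48.1%, 2891 bases and 14594 bases, and all tested genes 48.4%, 3573 bases and 22648 bases. After removal of trends with GC content and length, 1613 of the 1763 higher members and 552 of the 729 lower members were kept. Noncoding RefSeq genes were 8.51% of higher and 9.33% of lower members, beside 12.4% of all tested genes.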

How the data were processed

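RNA-Seq was analysed for 8 libraries of BEAS-2B cells, 2 in each of UT, Ni-E, Ni-W and HCl3, grouped by their labels. The deposited raw counts per RefSeq gene were made by the authors with STAR 2.4 (genome build hg19) and BioWardrobe, from reads with 1 alignment. The authors also deposited RPKM values, rounded to 2 decimals. Whether counting used the strand is not given in the sources used here. RPKM is printed as the level of a gene, and tests used the deposited counts.

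All 8 libraries were fitted with DESeq2 1.42.0 in R 4.3.3 as washed-out (Ni-W and HCl3) against other (UT and Ni-E), with median-of-ratios size factors, a two-sided Wald test and Benjamini-Hochberg adjustment. The thresholds were an adjusted P value under 0.05 and 1.5-fold. Each pair of groups was fitted on its own 4 libraries. Since a class holds 2 groups of 2 libraries, differences between the groups of a class count as its spread. A gene with 3 reads or fewer in each library of a class has its fold computed against the mean level of 3 reads in those libraries, given as a lower bound. Floors cover counting error only. Scripts were tested on simulated data, where DESeq2 made 0 false calls. With a GC trend planted between the classes, of a size chosen for the simulation, it made 2891 false calls. After removal of that trend it made 0.

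Named genes are the 12 largest changes each way among members whose mean normalized count reached 100, up to 3 members each way per list with a mean of at least 20, 3 genes each side of the boundary, and list genes that did not separate. Values outside this rule, chosen after they were seen, are those of HIF1A, EPAS1, EGLN1, ATF4 and PSAT1, and further members are named without values. Markers outside these were named from their lists. Members and lists were chosen with earlier results of these data known. Alternatives were edgeR 4.0.16, limma 3.58.1 with log2-transformed RPKM (pseudocount 1 or 0.1), TMM, a mean count of at least 10, other fold thresholds, a 4-group fit, removal of GC and length trends, a replicate block and each library left out. The count without chromosomes 13 and 15 was chosen after seeing the data.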

Additional observations from a re-analysis of the deposited data

Results flagged for a closer look

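Of the 120 members given with values above, 32 also differed between HCl3 and Ni-W in the fit of those 4 libraries (DESeq2, adjusted P value under 0.05 and at least 1.5-fold). Over all members tested there, 13.9% of the higher and 5.38% of the lower ones differed, beside 4.90% of all 14605 genes. Most named members were chosen by the size of their change, so their share does not stand for members in general. The size of the washout change of these 32 thus differed between the populations, since both were set against the same earlier libraries. In this fit 21 were higher and 11 lower in HCl3, and values below are log2 fold changes of HCl3 against Ni-W.

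Among the leading higher members, SYK (-5.02 ± 0.28 SE, adjusted P value 2.08e-69) and LPHN2 (-4.33 ± 0.20 SE, 7.18e-102) were far lower in HCl3, followed by ROBO1 (-2.02), PTPRN (-1.91), CADM3 (-1.57) and RTN1 (-1.05). GALC (0.65) and SLC38A5 (0.81) were higher in HCl3. Of the leading lower members, WT1 (1.99), GLDC (1.49) and FERMT1 (1.00) had fallen less in HCl3.

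In the matrix, COL5A1 (0.67) was higher and ITGA4 (-0.64) lower in HCl3, and ADAMTS1 (0.74) had fallen less there. The HIF targets CA9 (1.55) and EGLN3 (1.74) had risen more in HCl3, and ADM (1.24) had fallen less. CDH11 (-1.52) was lower and ESRP2 (1.67) higher in HCl3. In signalling, GREM1 (0.91) and WNT10A (0.96) were higher and SFRP1 (-0.77) lower in HCl3, and EFNA5 (0.85) had fallen less.

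The interferon-stimulated genes MX1 (1.22), MX2 (1.47) and OASL (1.98 ± 0.24 SE, adjusted P value 2.94e-14) had risen more in HCl3. SLC39A8 (-0.75) had risen less there and MT1E (0.73) had fallen less. HOXB9 (1.75) was near its UT level in HCl3 only, and SNRPN (-0.75) was lower in HCl3. At the edge of the rule, CTXN1 (0.70) and KIAA1462 (0.83) had fallen less in HCl3.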

How the results depend on the processing

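Each named member kept its direction under every alternative run, while VEGFA and COL1A1, which are no members, changed sign around 0 under some. Of the comparison's 2712 calls, limma on log2(RPKM + 1) left 1237, a 2-fold threshold 1507, and no fold threshold gave 5995, and the other alternatives, leave-one-out included, gave 2420 to 2932. Higher members numbered 795 with limma on log2(RPKM + 1) and 2746 without a fold threshold, and lower members 414 and 2430, and 190 at 2-fold. With a margin of 1.5-fold between the nearest libraries, 1040 genes were separated higher and 161 lower. With 1 library left out, genes called the same way in Ni-W against Ni-E and HCl3 against UT numbered 805 to 1158 (1251 with all libraries), members called between HCl3 and Ni-W 131 to 190 (276), and members called between Ni-E and UT 93 to 127 (230), where a lone library was assumed to vary like the other group. The lower counts come with fewer libraries.

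The labels do not say whether the replicate numbers pair the samples. The correlations of same-numbered deviations were between -0.145 and 0.212, which cannot settle it. With a replicate block 178 members were called between HCl3 and Ni-W and 121 between Ni-E and UT, and 2560 genes in the comparison of the classes.

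Over 130 of the named genes and all settings, uncalled genes included, 2458 values kept their side of the thresholds, 134 calls were lost and 4 gained, 36 of the losses at 2-fold and 31 with limma on log2(RPKM + 1). Just inside the rule, calls were lost without Ni-E replicate 1, Ni-W replicate 1 or Ni-W replicate 2 for ZNF280D (0.56 to 0.58), without Ni-E replicate 1 for GAS5 (-0.57), without either UT or either Ni-W library for KIAA1462 (-0.56 to -0.46), without either UT library, Ni-W replicate 1 or HCl3 replicate 2 for SMARCD3 (0.60 to 0.76), and for OXTR without any library but UT replicate 2 and Ni-E replicate 1 (0.71 to 0.98), and the cause was not tested. Of the list medians, 91 values moved by more than their spread and 461 did not. Depth limits genes near 3 reads.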

Other observations

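Clustered protocadherins, whose isoforms share exons so that their counts are uncertain, gave 11 higher and 2 lower members of 48 tested, with a median log2 fold change of 0.71. Dioxygenases that use iron and oxoglutarate, outside chromatin, gave 5 higher members and 1 lower member of 24. The higher ones were EGLN1 and EGLN3, which hydroxylate HIF, and P4HA1, P4HA2 and P4HA3, which hydroxylate collagen, and the lower one was ALKBH2, which repairs alkylated DNA. Immunoglobulin-like adhesion molecules gave 3 higher members of 16, CADM3, NCAM1 and CADM4.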
